A study of Arabidopsis thaliana with 28 samples.

Results

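AT3G49740 and AT5G15280 are a pair of Arabidopsis thaliana genes for pentatricopeptide repeat proteins whose array signal was higher in plants grown on sucrose. They were taken by probe number, 2478 for AT3G49740 and 4186 for AT5G15280, and are 2 of the 689 genes that had a probe of their own among 3439 probes. AT3G49740 lies on chromosome 3 and AT5G15280 on chromosome 5. The genes were chosen because earlier results of these data showed them higher on sucrose. Their difference between the media is therefore given as a description, without a test.

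All plants were wild type of the Columbia-0 ecotype, and total RNA was measured on 28 arrays. Plants of 14 arrays had been grown on MS (Murashige and Skoog, a mineral medium for plant culture) with 2% sucrose, and those of 14 arrays on MS with no sugar. The labels name no organ, age, separate culture or hybridization batch, so the spread between arrays may be technical. Of 6 green tissue markers listed, LHB1B2, PSAN and PRK were measured by a probe of 1 gene, and each gave signal above the signal floor on all 28 arrays. Of the 5 root, 4 seed and 4 flower markers listed, 0 were measured that way, so the organ could not be checked further.

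Pentatricopeptide repeat proteins are a large plant family made of repeated helical hairpins, and each protein binds a particular stretch of RNA in the chloroplast or the mitochondrion. Members of the family take part in editing, splicing, cleavage, stabilising and translating organelle transcripts, and they are encoded in the nucleus and imported into the organelle. Sucrose in the medium is a carbon source that reaches the plant beside its own photosynthesis, and sugar level is known to alter the expression of many nuclear genes for chloroplast and mitochondrial proteins. In bulk RNA, a change in the share of cells that express a gene and a change in the RNA per cell cannot be told apart.

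Arrays with consecutive replicate numbers were closest to each other for 26 of the 28 arrays, so they were averaged into 7 sets of 2 arrays per medium. Some sets stood apart from their label. Sucrose set 1 correlated over all probes at a mean of 0.938 with the no-sucrose sets and 0.80 with the other sucrose sets. No-sucrose sets 1 and 2 correlated at 0.96 with each other, at a mean of 0.875 with no-sucrose sets 3 to 7 and at 0.865 with sucrose sets 2 to 7. The results below are given with and without these 3 sets where they rest on them.

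The deposited intensities show how the signal of AT3G49740 was spread over the arrays. On the 14 sucrose arrays it ran from 0.125 to 1.23 with a median of 0.523. On the 14 no-sucrose arrays it ran from 0.0048 to 0.216 with a median of 0.16. Sucrose arrays 5 to 12, that is sets 3 to 6, were far above every no-sucrose array. Sucrose array 13 (0.224) was just above them, and sucrose arrays 1 to 4 and 14 lay within their range. The lowest values were those of no-sucrose arrays 1 to 4 (0.0306, 0.0306, 0.0212 and 0.0048), below the signal floor of 0.0483. That floor is the lowest intensity used for log values and was set at percentile 5 of the intensities above 0.

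For AT5G15280 the deposited intensity ran from 0.0927 to 0.588 with a median of 0.275 on the no-sucrose arrays, and from 0.259 to 1.13 with a median of 0.581 on the sucrose arrays. No array of either medium was at or below the floor. The no-sucrose maximum of 0.588 came from array 6, whose partner in no-sucrose set 3 read 0.229. In the other sets the normalized log2 values of a set's arrays differed by at most 0.325 for this gene. The next highest no-sucrose array read 0.38, and sucrose arrays 4, 13 and 14 (0.365, 0.285 and 0.259) lay below it.

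**Figure D1:**
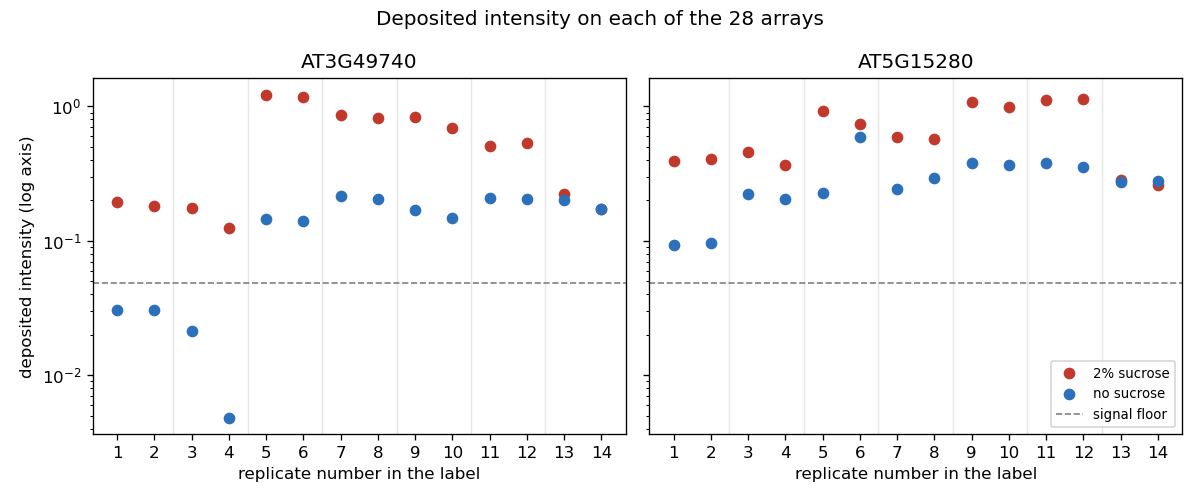
Deposited intensity (log axis) of AT3G49740 and AT5G15280 on each array, plotted against the replicate number in the label; points are single arrays, vertical lines divide the sets of 2 arrays and the dashed line is the signal floor of 0.0483. For AT3G49740 the sucrose arrays 5 to 12 sit far above all no-sucrose arrays. Sucrose array 13 sits just above them, and sucrose arrays 1 to 4 and 14 sit among them.

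After quantile normalization, which gives every array the same distribution of values, the sets of AT3G49740 on sucrose stood at log2 intensities of -2.88, -2.44, 0.21, 0.16, -0.30, -0.68 and -1.71 for sets 1 to 7. Without sucrose they stood at -4.37, -4.37, -3.57, -2.83, -3.07, -2.90 and -3.25, where -4.37 is the floor. The 6 sucrose sets from 2 to 7 were above every no-sucrose set, and sucrose set 1 was 0.05 below the highest of them.

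The group means of AT3G49740 were -1.09 ± 1.26 on sucrose and -3.48 ± 0.66 without (SD of log2 intensity, n = 7 sets each). The difference was 2.39 ± 0.52 on the log2 scale (SE), or 5.24-fold, which ranked 3 of the 3439 probes among increases on sucrose. The spread between sets of a group was 1.002 (SD, log2), against 0.158 between the arrays of a set. The latter is held down by no-sucrose sets 1 and 2, whose arrays differ by 0 because all were raised to the floor. The sets at the floor make the fold depend on the floor chosen. When 0.1 was added to every intensity and no floor was set it was 3.11-fold, and as the ratio of the linear set means (0.552 ± 0.402 against 0.136 ± 0.0815, SD, n = 7 sets each) it was 4.07-fold.

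The sets of AT5G15280 stood at log2 intensities of -1.73, -0.83, -0.27, -0.28, 0.11, 0.23 and -1.25 on sucrose, for sets 1 to 7. Without sucrose they stood at -2.83, -1.98, -2.20, -2.44, -1.86, -1.99 and -2.60. All 7 sucrose sets were above all 7 no-sucrose sets, with a gap of 0.13 between sucrose set 1 and no-sucrose set 5. Over all probes, 0.872% had every sucrose set above every no-sucrose set, and 1.95% had no overlap in either direction. AT5G15280 was chosen from this contrast, so nothing is read from that count.

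The group means of AT5G15280 were -0.57 ± 0.73 on sucrose and -2.27 ± 0.36 without (SD of log2 intensity, n = 7 sets each). The difference was 1.70 ± 0.30 on the log2 scale (SE), or 3.24-fold, rank 36 among increases. The spread between sets of a group was 0.573 (SD, log2) and that between the arrays of a set 0.268. In both genes the sucrose sets were more spread than the no-sucrose sets, by SD of these values. For AT3G49740 the no-sucrose SD is limited by the floor, to which no-sucrose sets 1 and 2 were raised. The order of its log2 SDs therefore depends on the floor.

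**Figure D2:**
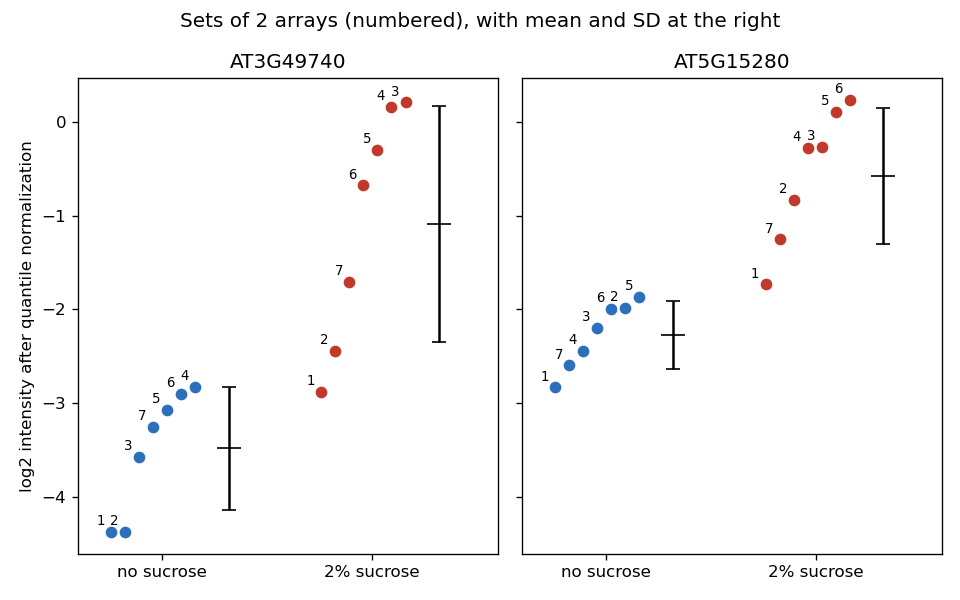
Log2 intensity after quantile normalization in the 7 numbered sets of each medium for AT3G49740 and AT5G15280, with the mean and SD (n = 7 sets) to the right of the points. Sucrose set 1 is the lowest sucrose set in both genes, and the sucrose and no-sucrose sets of AT5G15280 do not overlap.

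How far the groups separated depended on the scaling of the arrays. Left on the deposited scale, AT3G49740 was 3.38-fold higher (log2 1.76 ± 0.57, SE) and AT5G15280 2.29-fold higher (log2 1.20 ± 0.39, SE). By the mean log2 value of each set, 4 of the 7 sucrose sets of AT3G49740 and 6 of the 7 of AT5G15280 were then above the highest no-sucrose set. For AT3G49740, sucrose sets 2 and 7 changed place between the scales. Their mean deposited intensities of 0.15 and 0.199 lay within those of the no-sucrose sets, which reached 0.21. For AT5G15280 it was sucrose set 7, at a log2 of -1.88 against -1.42 for the highest no-sucrose set.

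The overall brightness of the sets moved with this. The median intensity of all probes was 0.163 in sucrose set 7 and 0.163 to 0.213 in sucrose sets 2 to 7, against 0.344 to 0.432 in no-sucrose sets 3 to 7. It was 0.339 in sucrose set 1 and 0.182 and 0.213 in no-sucrose sets 1 and 2. The scaling therefore raised both genes in sucrose sets 2 to 7 relative to no-sucrose sets 3 to 7, and the part of overall brightness in their difference was not tested. As deposited, the median log2 difference of all probes was -0.31, so both genes were higher on sucrose against a general shift the other way. With each array centred on its median, AT3G49740 was 5.20-fold and AT5G15280 3.52-fold higher, against a median log2 difference of 0.31 over all probes. Without the 3 sets that stood apart, the quantile-normalized folds were 5.04 and 3.57.

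Of the 3 green tissue markers measured, 2 were called higher on sucrose after quantile normalization, as were 17.6% of all probes. On the deposited scale fewer probes were called higher, 189 against 605, and the markers are not given on that scale. PSAN, a subunit of photosystem I, had log2 intensities of 2.09 to 2.99 on sucrose and 1.49 to 2.46 without, and rose by 0.67 ± 0.17 (SE; limma adjusted p = 0.0132). PRK, the Calvin cycle enzyme phosphoribulokinase, ran from -0.15 to 1.33 on sucrose and from -0.95 to 0.50 without, and rose by 0.96 ± 0.28 (log2, SE; limma adjusted p = 0.0243). LHB1B2, a light-harvesting chlorophyll binding protein, had means of 4.95 ± 0.21 and 4.60 ± 0.30 (log2, SD, n = 7 sets each), a difference of 0.35 ± 0.13 (log2, SE; limma adjusted p = 0.0644), and did not pass. All 7 sucrose sets of each marker were above its no-sucrose mean. Their part in the difference of AT3G49740 and AT5G15280 was not tested.

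**Figure D3:**
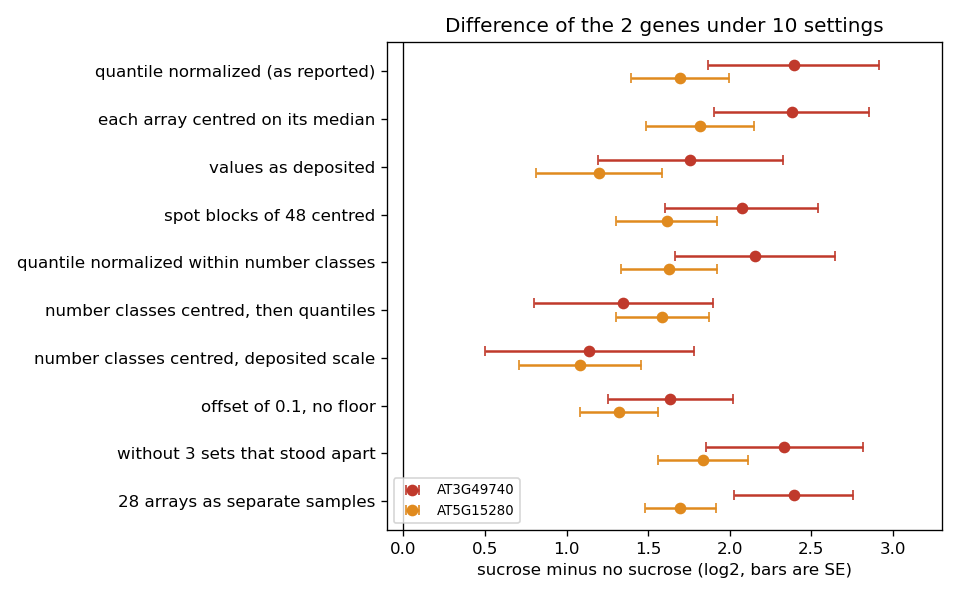
Log2 difference between sucrose and no sucrose for AT3G49740 (red) and AT5G15280 (orange) under 10 ways of processing, with SE. Points of both genes are above 0 under each setting, at 1.14 to 2.39 for AT3G49740 and at 1.08 to 1.83 for AT5G15280, and lowest with number classes centred on the deposited scale.

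Position on the array was approached through the probe numbers, whose relation to the spot layout is not given in the sources used here. Among the other 40 probes in the block of 48 consecutive numbers that holds AT3G49740, log2 differences ran from -2.08 to 1.96 with a median of 0.09. For AT5G15280 the other 42 probes of the block ran from -2.07 to 1.13 with a median of 0.00 after rounding. Both genes thus lay above every other probe of their block. They were chosen for their rise on sucrose, so nothing is read from that place. With each block centred, AT3G49740 was 4.21-fold and AT5G15280 3.06-fold higher.

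The probe numbers also fell into 6 repeating classes of unlike brightness. AT3G49740 belongs to the class of every sixth number, in which 87.8% of the values of its 261 probes were at or below the floor. In the other 5 classes, AT5G15280's among them, the share was 9.42% to 18.9%. The fold of AT3G49740 depended on how this dim class was treated. It was 4.45-fold with quantile normalization inside each class. It was 2.55-fold with each class centred on its median before quantile normalization, and 2.20-fold (log2 1.14 ± 0.64, SE) with classes centred on the deposited scale. The median of the dim class was at the floor on all 28 arrays, so centring it adds each array's overall median to AT3G49740. For AT5G15280 the same settings gave log2 differences of 1.62, 1.59 and 1.08, the last being 2.12-fold. These settings were added after the data were seen.

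Whether the genes rise together was asked within each medium, which leaves out the difference between the group means that chose them. That difference can still enter the sucrose group through sucrose set 1. This set correlated more with the no-sucrose sets than with the other sucrose sets, and was the lowest sucrose set of both genes. On sucrose the same sets were low in both genes, sets 1, 2 and 7, and the same sets high, sets 3 to 6. Among the high sets the order ran opposite ways: AT3G49740 fell from set 3 through sets 4 and 5 to set 6, and AT5G15280 was highest in set 6, then set 5, then sets 3 and 4. Over the 7 sucrose sets Pearson's r was 0.82 (two-sided exact permutation p = 0.0290, adjusted p = 0.116 over the 4 tests of both media). Spearman's rho was 0.643 (two-sided exact permutation p = 0.139, adjusted p = 0.278). The relation did not pass after adjustment.

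The correlation on sucrose rested partly on sucrose set 1, the set that lay with the no-sucrose arrays. Without it r was 0.683 (exact permutation p = 0.146, adjusted p = 0.583, n = 6 sets). Without the 2 sets farthest from the median of AT3G49740, sets 1 and 2, r was 0.643 over 5 sets. Over the 14 single arrays, which repeat each set, r was 0.819. The difference between the arrays of a set, which carries only the variation inside it, correlated between the genes at 0.509 over the 7 sucrose sets and at -0.251 over the 7 no-sucrose sets, as a description.

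Without sucrose no relation passed the test. Over the 7 no-sucrose sets r was 0.269 (two-sided exact permutation p = 0.533, adjusted p = 0.711) and rho was 0.162 (two-sided exact permutation p = 0.729, adjusted p = 0.729). No-sucrose sets 1 and 2 both stood at the floor for AT3G49740, whereas AT5G15280 was lowest in set 1 and among its higher no-sucrose values in set 2. Leaving out both gave r = 0.118 over 5 sets, leaving out set 1 alone turned r to -0.242, and leaving out set 2 alone gave 0.64. On the deposited scale, where those sets also differ in overall brightness, r was 0.781 without sucrose (exact permutation p = 0.0417, adjusted p = 0.129) and 0.77 on sucrose (exact permutation p = 0.0645, adjusted p = 0.129; n = 7 sets each). The smallest p that 7 sets allow is 0.000397. The correlations of the media were not tested against each other.

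**Figure D4:**
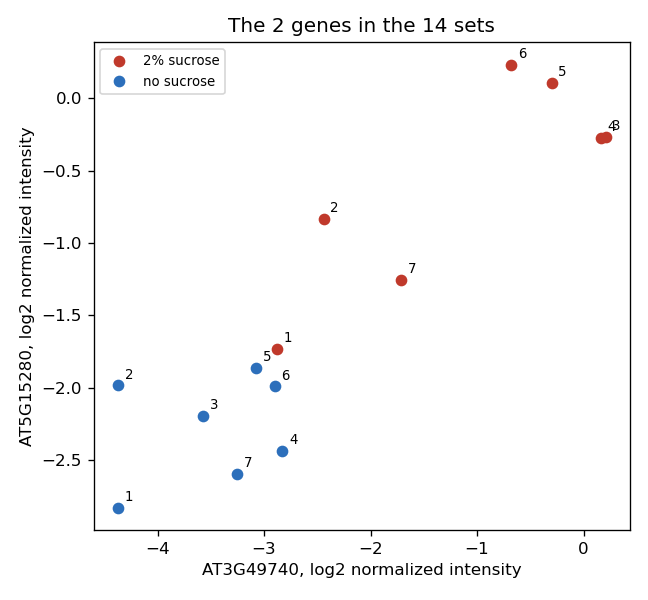
Log2 normalized intensity of AT5G15280 against that of AT3G49740 in the 14 sets, numbered within each medium. The 7 sucrose sets spread along both axes (r = 0.82), with sets 3 to 6 at the upper right, and the 7 no-sucrose sets form a cluster without a clear slope (r = 0.269).

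Other probes followed the same set-to-set pattern. Within the sucrose sets, 75 of 3065 probes with any variation (2.45%) correlated with AT3G49740 at least as highly as AT5G15280 did, and 117 (3.82%) correlated with AT5G15280 at least as highly as AT3G49740 did. Each count includes the probe of the other gene of the pair itself. Within the no-sucrose sets these shares were 39.7% and 22.0% of 3136 probes. These are descriptions across probes that share the same arrays.

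Likeness of pattern was measured by Pearson's r over all 14 sets among 590 other probes of 1 gene that were above the floor in at least 7 sets. That measure contains the difference between the media that chose both genes. AT5G15280 was the gene most like AT3G49740 (r = 0.899), followed by AT4G02580 (0.891), AT4G24090 (0.889), LAS (0.875) and AT2G42490 (0.847). LAS is Lateral Suppressor, a transcription regulator of axillary meristems. Its own difference between the media was 0.38 ± 0.13 (log2, SE; limma adjusted p = 0.0415), with log2 means of -1.14 ± 0.25 and -1.52 ± 0.24 (SD, n = 7 sets each). It followed AT3G49740 at r = 0.747 within the sucrose sets and 0.957 within the no-sucrose sets. The no-sucrose value includes sets 1 and 2, in which AT3G49740 stood at the floor. AT4G02580 was at or below the floor on 13 of its 14 no-sucrose arrays and 2 of its 14 sucrose arrays, so no fold and no correlation within the no-sucrose sets is given; within the sucrose sets it followed AT3G49740 at r = 0.805.

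The genes most like AT5G15280 were AT4G32340 (r = 0.935), AT5G17630 (0.922), AT5G05330 (0.913), AT4G02580 (0.906) and AT1G25500 (0.90). AT3G49740 came after them, in place 6. AT4G32340 stood at 0.60 ± 0.72 on sucrose and -0.83 ± 0.32 without (log2, SD, n = 7 sets each), 2.70-fold higher, and followed AT5G15280 at r = 0.947 within the sucrose sets and 0.122 within the no-sucrose sets. AT1G25500 was 2.64-fold higher. AT5G17630 was 3.19-fold higher, with 4 of its 14 no-sucrose arrays at or below the floor. AT5G05330 was at or below the floor on 10 of its 14 no-sucrose arrays, so no fold is given. The r of these 3 genes with AT5G15280 was 0.825 to 0.888 within the sucrose sets. AT4G02580 was the gene shared by both lists of 5. It was at the floor in 6 no-sucrose sets and 1 sucrose set, so it passed the filter mainly through its sucrose sets. AT5G05330 was at the floor in 4 no-sucrose sets and 1 sucrose set. Their r over the 14 sets rests largely on the difference between the media, so nothing is read from their places.

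Other members of the repeat family were searched by name. The RefSeq table names 13 such genes in a symbol or synonym, and 0 of them had a probe of their own; PPR336 shares a probe with another gene. The table holds no gene descriptions, so genes known by locus alone could not be found this way, and the count does not show how many family members were on the array. OTP70, OTP85 and CRR21 are family members known by symbol, picked after that search. OTP70 acts in splicing of a chloroplast transcript, and OTP85 and CRR21 act in editing of chloroplast transcripts. OTP85 was at or below the floor on 27 of the 28 arrays, so no fold is given. Of the other 2, limma called 0 at an adjusted p of 0.05 and 0 at an unadjusted p of 0.05, where 30.0% of all probes were called, 17.6% higher and 12.4% lower on sucrose. Their median log2 difference was -0.35, against 0 for all probes.

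OTP70 had a value on the opposite side from the AT3G49740 and AT5G15280 differences. Its log2 intensity was -1.28 ± 0.54 on sucrose and -0.85 ± 0.37 without (SD, n = 7 sets each), a difference of -0.43 ± 0.24 (SE; limma adjusted p = 0.193). The 95% confidence interval of that difference ran from -0.96 to 0.09. Its lowest sets were sucrose sets 3, 4 and 6 (-2.15, -1.60 and -1.58), in which AT3G49740 and AT5G15280 were high, and over the 14 sets it correlated at -0.77 with AT3G49740 and -0.571 with AT5G15280. On the deposited scale OTP70 was called lower (log2 -1.06 ± 0.26, SE, limma adjusted p = 0.0139). So were 739 of the 3439 probes, against 189 called higher, and the median log2 difference of all probes was -0.31. With spot blocks centred OTP70 was also called lower (log2 -0.64, limma adjusted p = 0.0139), as were 534 probes. The fit of the 28 arrays as separate samples called it too (limma adjusted p = 0.0413). That fit counts the like arrays of a set as independent, so nothing is read from this call. After quantile normalization without the 3 sets that stood apart, the difference of OTP70 was -0.28 ± 0.26 (log2, SE, limma adjusted p = 0.423). Without sucrose set 3 alone it was -0.29 ± 0.22 (limma adjusted p = 0.346).

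CRR21 stood at -1.85 ± 0.48 on sucrose and -1.59 ± 0.25 without (log2, SD, n = 7 sets each), a difference of -0.26 ± 0.20 (SE; limma adjusted p = 0.352). Its 95% confidence interval ran from -0.69 to 0.17. On the deposited scale CRR21 was called lower (log2 -0.86, limma adjusted p = 0.0435), as were 739 of the 3439 probes, against 189 called higher. After quantile normalization, leaving out sucrose set 5 gave -0.14 and leaving out sucrose set 6 gave -0.37, with neither called. Beyond the repeat family, AT5G55580 (mTERF9), of the mitochondrial transcription termination factor family, which acts on organelle gene expression, was the only listed organelle RNA or protein synthesis gene with its own probe. Its difference was -0.06 ± 0.13 (log2, SE; limma adjusted p = 0.783), and its 95% confidence interval ran from -0.35 to 0.23. None of the 19 tetratricopeptide repeat genes named in the RefSeq table, a family of related helical repeats, had a probe of 1 gene.

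**Figure D5:**
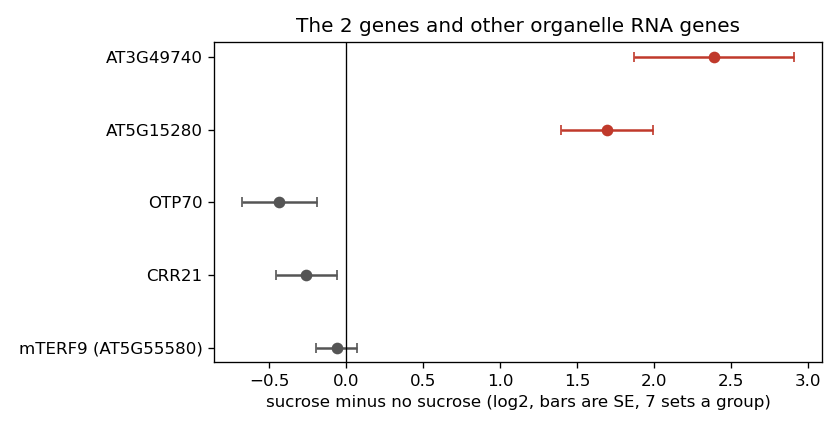
Log2 difference between sucrose and no sucrose, with SE (7 sets per medium), for AT3G49740, AT5G15280, the repeat protein genes OTP70 and CRR21, and mTERF9. The difference of AT3G49740 is 2.39 and that of AT5G15280 1.70, and those of the other 3 genes lie between -0.43 and -0.06.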

How the data were processed

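For each array the deposited file gives a linear intensity for every probe, with no negative value. What the authors did to obtain it (scanner, background correction, normalization) is not given in the sources used here. Between 409 and 601 of the 3439 probes per array were listed at 0. The number of arrays limits the precision. Intensities below a floor (0.0483) were raised to it, and all were log2 transformed and quantile normalized, since array medians spanned 1.44 on the log2 scale. Consecutive arrays were averaged into sets, a choice based on their correlations and not on the labels. limma 3.58.1 (lmFit and eBayes, R 4.3.3, two-sided) was run on all probes with Benjamini-Hochberg adjustment, and was tested on simulated data. Correlations used exact permutation of 5040 pairings (Python 3.11.15).

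Genes came from the platform annotation, updated through RefSeq (TAIR10.1, which matched 690 of the 692 probes of 1 gene); 870 probes had several genes and 1877 were not listed. No sequences and no genome positions were used here. The members, lists and tests were chosen with earlier results of these data known. Named genes were the members, the family genes, the listed organelle genes and, per member, the 5 probes most like it; OTP70, OTP85 and CRR21 were added after the name search. Alternatives covered scaling, floor, probe number blocks and classes, dim probes, the variance model, the replicate number as a block, single arrays, and sets left out.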

Additional observations from a re-analysis of the deposited data

Results flagged for a closer look

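Dixon's test singled out a set in 5 of the 27 groups of 7 sets examined. Chance flags about 1 in 20 groups. The sets of AT3G49740 and AT5G15280 were not among them. No-sucrose set 3 was the highest of its group for OTP85 (gap over range 1, the other sets being tied at the floor), AT5G17630 (0.662) and AT5G05330 (0.68). No-sucrose set 2 was the highest for AT4G02580 (gap over range 1, again with the others tied at the floor). Sucrose set 2 was the lowest for AT5G55580 (mTERF9), at a log2 intensity of -0.71 against -0.29 for the nearest set (gap over range 0.636).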

How the results depend on the processing

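AT3G49740 and AT5G15280 were higher on sucrose under each of the 12 other settings run and with each of the 14 sets left out in turn. Leaving out a set gave log2 differences of 2.17 to 2.69 for AT3G49740 and 1.56 to 1.89 for AT5G15280, and the other settings gave 1.14 to 2.39 and 1.08 to 1.83. The lowest came from centring the 6 classes of probe number on the deposited scale (1.14 and 1.08); centring them before quantile normalization gave 1.35 for AT3G49740. Centring by position in blocks of 48 left AT3G49740 unmoved, since the median of its dim class is at the floor, and tests nothing for that gene. The number of probes called over the whole array was 1033, and moved to 1710 with the 28 arrays as separate samples and to 1657 without the 3 sets that stood apart; leaving out a set gave 764 to 1431. With quantile normalization 605 of the called probes were higher on sucrose and 428 lower; as deposited these were 189 and 739, and with array medians centred 1076 and 433. With the replicate number as a block 416 were called, and none of OTP70, CRR21 and AT5G55580 passed. Over all probes, sets of the same number did not deviate together (correlations of -0.516 to 0.128), so the number was not used as a pairing in the main fit. For the 2 genes the block left the differences unchanged and lowered their SE. It went from 0.521 to 0.301 for AT3G49740 and from 0.299 to 0.175 for AT5G15280 (log2). Whether these 2 genes follow the set number across the media was not tested.

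Within the sucrose sets the correlation of AT3G49740 with AT5G15280 ran from 0.683 to 0.868 with a set left out and did not pass after adjustment under any of the 6 other settings. Within the no-sucrose sets it ran from -0.242 to 0.64 with a set left out, was -0.063 with 0.1 added to every intensity, and was 0.781 on the deposited scale (exact permutation p = 0.0417, adjusted p = 0.129). AT5G55580 (mTERF9) turned to 0.15 with medians centred and 0.40 with spot blocks centred, and OTP85, at the floor, to 0.46, 0.0181 and 0.0789 with medians, spot blocks and spot positions centred. For AT5G55580, leaving out a set gave log2 differences of -0.122 to 0.0238, above 0 without no-sucrose set 7 (0.0238) and without sucrose set 2 (0.0131). The cause of these moves was not tested. No background level per probe is known, and 4 of the 14 no-sucrose arrays of AT3G49740 were under the floor.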
